A study of Danio rerio with 12 samples.

Results

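The intercalated disc adhesion genes are 9 of the 25281 genes in the deposited tables: cdh2, jupa, jupb, dspa, dspb, pkp2, dsc2l, cx43 and desma. They were taken by gene symbol. The tables listed 8 of them under these names, and dspb was found through its older name wu:fi04e12, which RefSeq gives as a synonym of dspb. Bulk RNA was sequenced from the ventricles of adult zebrafish, 6 months to 1 year of age by the labels. The injury experiment had 1 library each of WT (strain AB*) and of dusp6 pt30a/pt30a mutant hearts, uninjured and at 3 days post-amputation (dpa) of the ventricular apex. The foxm1 experiment had 3 libraries of WT (AB*) and 3 of foxm1 mutant hearts, all at 3 dpa. The labels number these as experiments 2 to 4, with 1 WT and 1 mutant library in each. They are called replicates 2 to 4 of the foxm1 experiment here. By the labels, the foxm1 mutants were sa10708/sa10708 in replicate 2, sa10708/sa10709 in replicate 3 and sa10708/sa10710 in replicate 4. The methods name sa10708 as the only foxm1 allele. Both mutations are germline alleles and so were not limited to heart cells. Hearts were pooled, so p-values reflect how far pools differed and not how far single hearts differed. Where 3 dpa was compared with uninjured hearts, each group held 1 WT and 1 dusp6 mutant library, with no term for genotype. The SDs, SEs and p-values there also include the difference between these genotypes. Hearts at 7 dpa were labelled as 1 WT and 1 dusp6 mutant sample, and the study combined these genotypes by injury status. For them only the authors' group means were used.

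The intercalated disc is the end-to-end contact between cardiomyocytes, where adherens junctions anchor actin, desmosomes anchor desmin filaments and gap junctions pass current. N-cadherin (cdh2) is the adhesion receptor of the adherens junction of the heart, and plakoglobin (jupa, jupb) binds the tails of both classical and desmosomal cadherins. In the desmosome, desmocollin (dsc2l) spans the membrane, plakophilin 2 (pkp2) clusters below it and desmoplakin (dspa, dspb) ties it to desmin (desma). Connexin 43 (cx43) forms gap junction channels. In mammals, inherited faults of desmosomal genes cause arrhythmogenic cardiomyopathy. Jupa and jupb, and dspa and dspb, are pairs of duplicated genes of which mammals have a single copy.

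Levels are given in TPM (reads in exons per kilobase, which the authors scaled so that each library has the same sum) where genes are set beside each other. Tests used all reads in a gene, given as counts per 1000000 reads (CPM) after TMM scaling, which assumes that most genes keep their level. Libraries of the injury experiment held 54229254 to 67236702 reads in genes and those of the foxm1 experiment 17654534 to 21245883. The targeted genes were not lower in their mutants: dusp6 was at 93.8 and 235 CPM in WT and at 201 and 338 CPM in dusp6 mutant hearts, uninjured and at 3 dpa, and foxm1 was at 10.3 to 12.2 CPM in WT and 12.5 to 14.6 CPM in foxm1 mutant hearts. All 17 cardiomyocyte markers found in the tables were detected in every library, with a summed level of 78574 to 78682 TPM in uninjured and 33983 to 58280 TPM in 3 dpa hearts of the injury experiment. In bulk samples, fewer cells of a type and less RNA per cell cannot be told apart. In the foxm1 experiment, WT replicates 2 and 3 stood apart, with fkbp5, a glucocorticoid-induced gene, at 1189 and 1529 CPM against 111 to 187 CPM in the other 4 libraries.

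In uninjured ventricles the order of the members by TPM was desma (mean 1063 ± 12.4, SD, n = 2), cdh2 (163 ± 14.3), dspb (39.1 ± 10.5), jupa (24.6 ± 0.955), dsc2l (19.3 ± 0.769), dspa (16.7 ± 1.00), pkp2 (4.01 ± 0.700), cx43 (3.43 ± 0.292) and jupb (0.720 ± 0.184). Of these neighbours, only pkp2 and cx43 overlapped between libraries. At 3 dpa in the injury experiment the order below desma and cdh2 was dsc2l (34.4 ± 10.1 TPM, n = 2), jupa (33.2 ± 5.37), dspb (29.0 ± 0.101), dspa (27.2 ± 5.75), cx43 (18.1 ± 5.30), pkp2 (4.12 ± 0.375) and jupb (0.441 ± 0.126). There dsc2l overlapped with jupa, and dspb with dspa. WT hearts of the foxm1 experiment had the same order at both ends, with dsc2l at 48.6 ± 3.13 TPM (n = 3) and jupb at 0.193 ± 0.0794 TPM. In between, dspa overlapped with jupa and dspb with cx43.

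**Figure D1:**
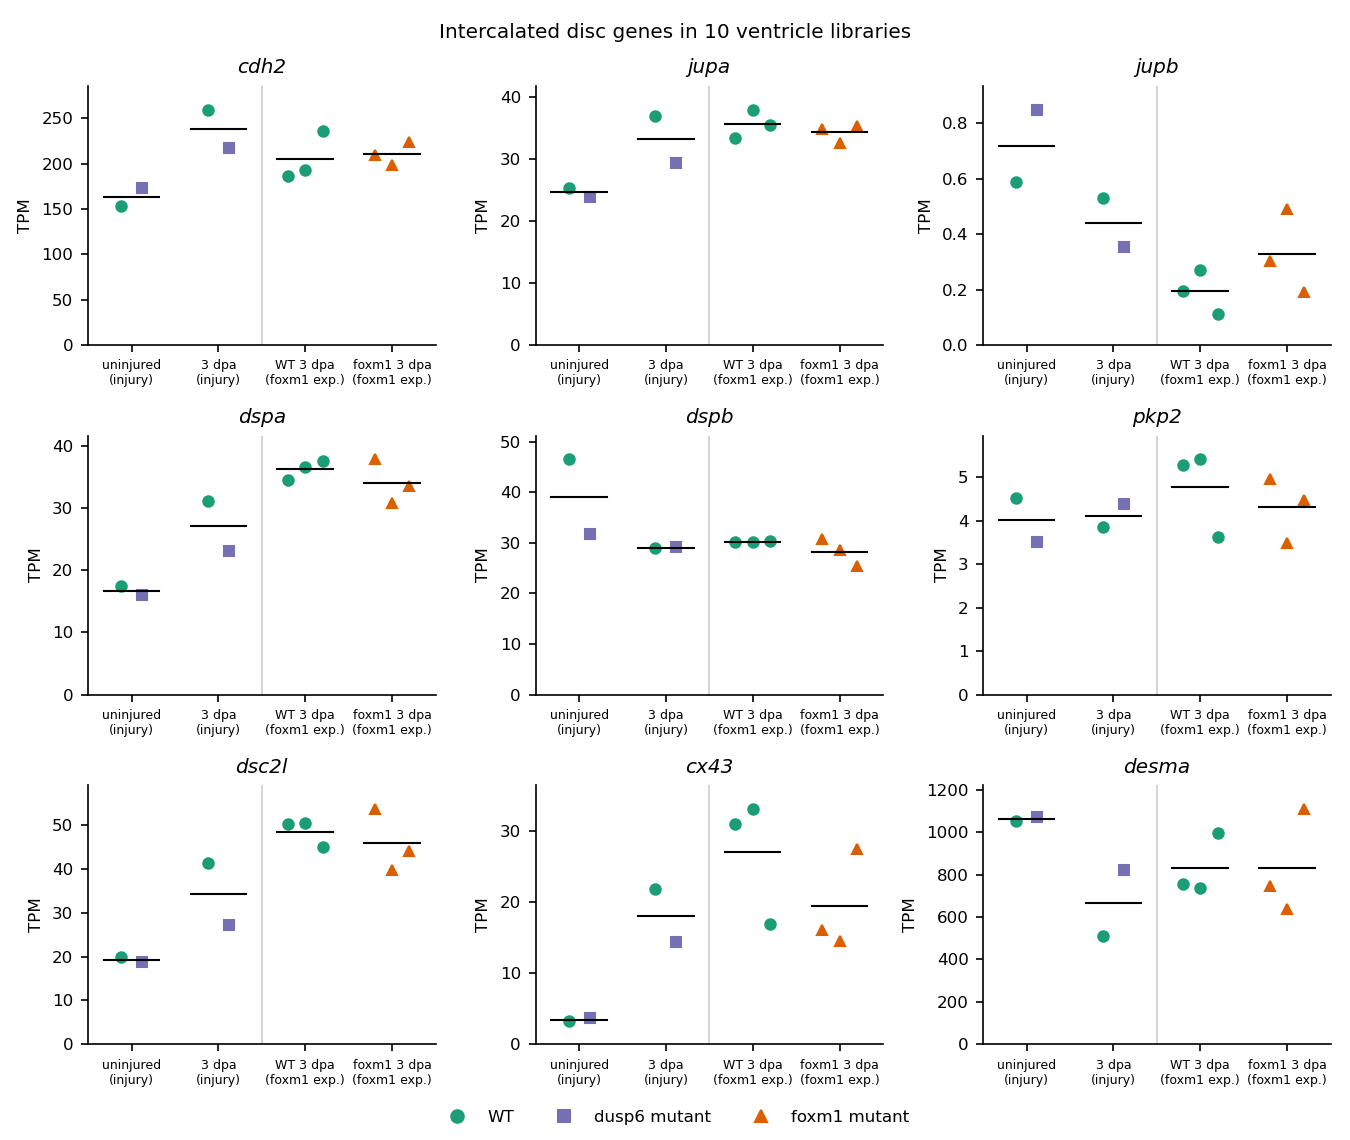
Level of each member in TPM (vertical axes, from 0) in the 10 ventricle libraries, with circles for WT, squares for dusp6 mutants and triangles for foxm1 mutants, and black lines for group means. The grey line parts the injury experiment from the foxm1 experiment. Cx43 stands at 3.22 and 3.64 TPM in the uninjured libraries and at 14.4 TPM or above in all 8 libraries at 3 dpa.

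The first comparison asks how disc genes differed between resected and uninjured ventricles, with WT and dusp6 mutant libraries of a state taken as its replicates, as in the study. Cx43 had the largest difference of the members, 3.90-fold higher at 3 dpa, and desma was 1.99-fold and dspb 1.72-fold lower, but no member passed the threshold. The 9 members had a median log2 fold change of 0.05, beside −0.0046 over the 20408 genes tested, with 5 members positive and 4 negative. The edgeR quasi-likelihood test called 0 of the 9 members, against 0% of all genes, where a call needed an adjusted p no higher than 0.01 and a log2 difference no smaller than 0.59. The lowest adjusted p of any gene was 0.0674 in this edgeR test. At an unadjusted p of 0.05 or less, 1 member was higher (cx43) and 1 lower (dspb), beside 13.6% and 7.38% of all genes. DESeq2 called cx43 alone, where it called 6.17% of all genes higher and 1.36% lower. In 5 members both libraries at 3 dpa lay above both uninjured libraries in CPM and in 3 members below, beside 28.0% and 27.7% of all genes. A lack of overlap was thus common over all genes in this comparison. It was more frequent among the 9 members, which was not tested.

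At the adherens junction, cdh2 was at 153 TPM in WT and 173 TPM in dusp6 mutant uninjured hearts, and at 260 and 217 TPM at 3 dpa. Both injured libraries lay above both uninjured ones, and in CPM the step was small, from 502 and 590 to 614 and 615 CPM. The log2 fold change was 0.17 (SE 0.26, edgeR adjusted p = 0.764). On the log2(TPM + 0.1) scale cdh2 had 0.54, where the median gene stood 0.29 higher at 3 dpa and 69.2% of all genes were positive.

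Jupa was at 25.3 and 23.9 TPM in WT and dusp6 mutant uninjured hearts and at 37.0 and 29.4 TPM at 3 dpa. In CPM its libraries were close together, at 110 and 108 before and 116 and 110 after resection, with a log2 fold change of 0.05 (SE 0.20, edgeR adjusted p = 0.912). Jupb, the second plakoglobin gene, was at 0.589 and 0.850 TPM in uninjured and at 0.530 and 0.352 TPM in 3 dpa hearts. Its reads lay mostly outside exons: 56.1% to 95.5% of the reads in the gene were in introns in the 10 libraries, and the injury experiment had 29 to 82 exon reads in a library. The log2 fold change was −0.51 (SE 0.36, edgeR adjusted p = 0.481) with all reads and −1.10 with exon reads (adjusted p = 0.254). Over all libraries jupa was 25.3 to 167 times as abundant as jupb in TPM + 0.1, so nearly all plakoglobin transcript of these ventricles was jupa.

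Among the desmosomal genes, the desmoplakin pair split. Dspa was at 17.4 TPM in WT and 16.0 TPM in dusp6 mutant uninjured hearts, and at 31.2 and 23.1 TPM at 3 dpa. Dspb was at 46.5 and 31.6 TPM in the same uninjured hearts and at 29.0 and 29.1 TPM at 3 dpa. The injured libraries thus lay above the uninjured ones for dspa and below them for dspb. In CPM, the log2 fold change was 0.26 for dspa (SE 0.21, edgeR adjusted p = 0.534) and −0.78 for dspb (SE 0.27, edgeR adjusted p = 0.201).

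For dspb the difference was mostly in WT hearts, with a log2 change of −1.15 in WT and −0.38 in dusp6 mutants, and 1 library in each of these 4 states. Leaving out 1 library at a time gave −1.02 to −0.52. The ratio of dspa to dspb within a library does not depend on scaling. It was 0.375 in WT and 0.507 in dusp6 mutant uninjured hearts, and 1.08 and 0.794 at 3 dpa. On the log2 scale the mean ratio was −1.20 ± 0.31 (SD, n = 2) in uninjured hearts and −0.11 ± 0.31 at 3 dpa, a difference of 1.09 without overlap (two-sided exact permutation test, p = 0.333, the smallest that 2 against 2 libraries allow). In the 6 libraries of the foxm1 experiment, also at 3 dpa, the ratio ran from 1.08 to 1.32. Dspa thus exceeded dspb in 7 of the 8 libraries at 3 dpa and in neither uninjured one. But 6 of these 7 came from the foxm1 experiment, which had no uninjured hearts, so state and experiment cannot be told apart there. Within the injury experiment dspa exceeded dspb only in the WT library at 3 dpa. Between 14.8% and 19.7% of the reads in dspa lay in introns, against 0.536% to 3.29% in dspb, and the same difference of 1.09 was found with uniquely mapped exon reads.

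**Figure D2:**
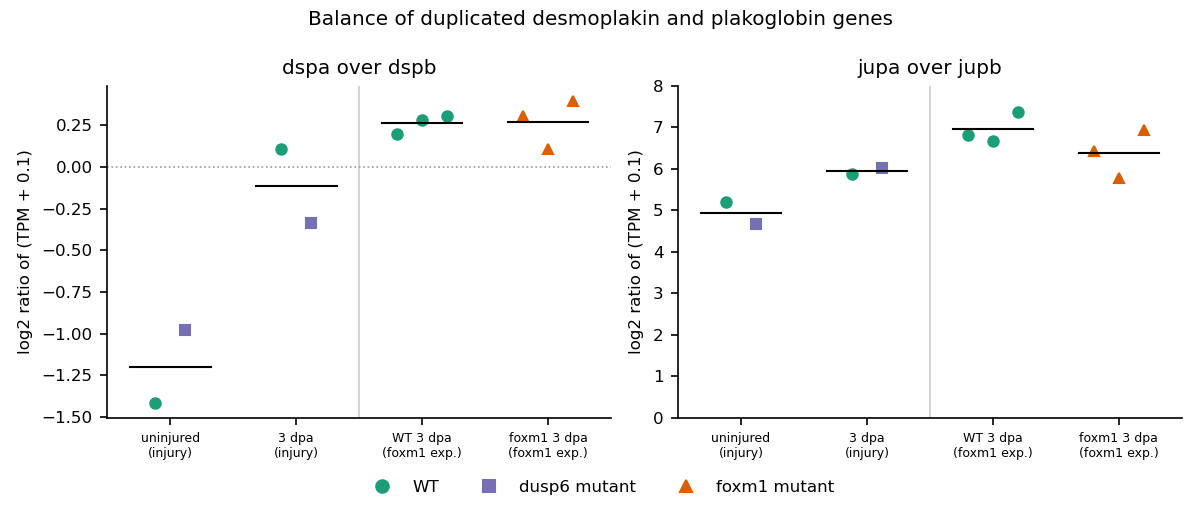
Log2 ratio of (TPM + 0.1) of dspa to dspb (left) and of jupa to jupb (right) in each library, with black lines for group means and a dotted line where dspa equals dspb. Dspa over dspb stands at −1.41 and −0.98 in the uninjured libraries and between −0.33 and 0.40 at 3 dpa; jupa exceeds jupb in every library.

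The jupa to jupb ratio also lay higher at 3 dpa, with a mean log2 ratio of 4.93 ± 0.38 (SD, n = 2) in uninjured and 5.95 ± 0.10 in 3 dpa hearts. The difference of 1.02 had the same smallest possible p of 0.333 (two-sided exact permutation test). It rests on the few exon reads of jupb, and was 0.66 with a pseudocount of 1 TPM in place of 0.1. Over the 4 paralogue comparisons made, including those in foxm1 mutants, no adjusted p was below 0.444 (exact permutation tests).

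Pkp2 was at 4.51 TPM in WT and 3.52 TPM in dusp6 mutant uninjured hearts and at 3.85 and 4.38 TPM at 3 dpa, so the groups overlapped. It was the only member whose direction differed between the genotypes. The log2 fold change over both was −0.25 (SE 0.29, edgeR adjusted p = 0.683), and it was 0.04 on the log2(TPM + 0.1) scale.

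Dsc2l was at 19.8 and 18.7 TPM in uninjured and at 41.5 and 27.2 TPM in 3 dpa hearts of WT and dusp6 mutants. Both injured libraries lay above both uninjured ones, at 95.6 and 75.3 against 63.7 and 62.5 CPM. The log2 fold change was 0.44 (SE 0.22, edgeR adjusted p = 0.324).

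At the gap junction, cx43 was at 3.22 TPM in WT and 3.64 TPM in dusp6 mutant uninjured hearts, and at 21.9 and 14.4 TPM at 3 dpa. The injured libraries were far above the uninjured ones in both genotypes, with a log2 change of 2.23 in WT and 1.68 in dusp6 mutants. In CPM the group means were 7.28 ± 0.756 (SD, n = 2) and 28.4 ± 4.72, and the log2 fold change was 1.96 (SE 0.24, edgeR adjusted p = 0.0674), which misses the threshold. With 1 library left out at a time it stayed between 1.78 and 2.14. Cx43 passed with DESeq2 (adjusted p = 6.43e-08), with edgeR's likelihood ratio test (1.12e-06), with all 10 libraries in one edgeR fit (0.00761) and with scaling to the cardiomyocyte markers (0.00264), in which 6.17%, 5.50%, 5.94% and 6.69% of all genes were called higher.

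Connexin 43 is also made by fibroblasts and epicardial cells, and in the injury experiment these cells' transcripts lay higher at 3 dpa too. All 16 epicardium and fibroblast markers were detected in every library. Their summed level was 279 to 318 TPM in uninjured and 2275 to 6938 TPM in 3 dpa hearts of the injury experiment. All 16 were positive on the log2 scale (median 3.70). In the foxm1 experiment the markers summed to 3902 to 4037 TPM in WT and 3387 to 3849 TPM in mutant hearts. Cx43 was at 16.9 to 33.2 TPM and 14.5 to 27.5 TPM in these hearts. The part of fibroblasts and epicardial cells in the cx43 values was not tested. The 14 macrophage markers, detected in every library, went from 382 to 428 TPM up to 698 TPM in both 3 dpa libraries of the injury experiment.

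Desma, which encodes the muscle intermediate filament desmin, was at 1054 TPM in WT and 1071 TPM in dusp6 mutant uninjured hearts, and at 512 and 822 TPM at 3 dpa. Both injured libraries lay below the uninjured ones, and they lay further apart from each other than the uninjured pair. The log2 fold change was −0.99 (SE 0.40, edgeR adjusted p = 0.248), with −1.48 in WT and −0.64 in dusp6 mutants. The cardiomyocyte markers as a list stood at about the same place, with 16 of 17 negative and a median of −1.06.

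**Figure D3:**
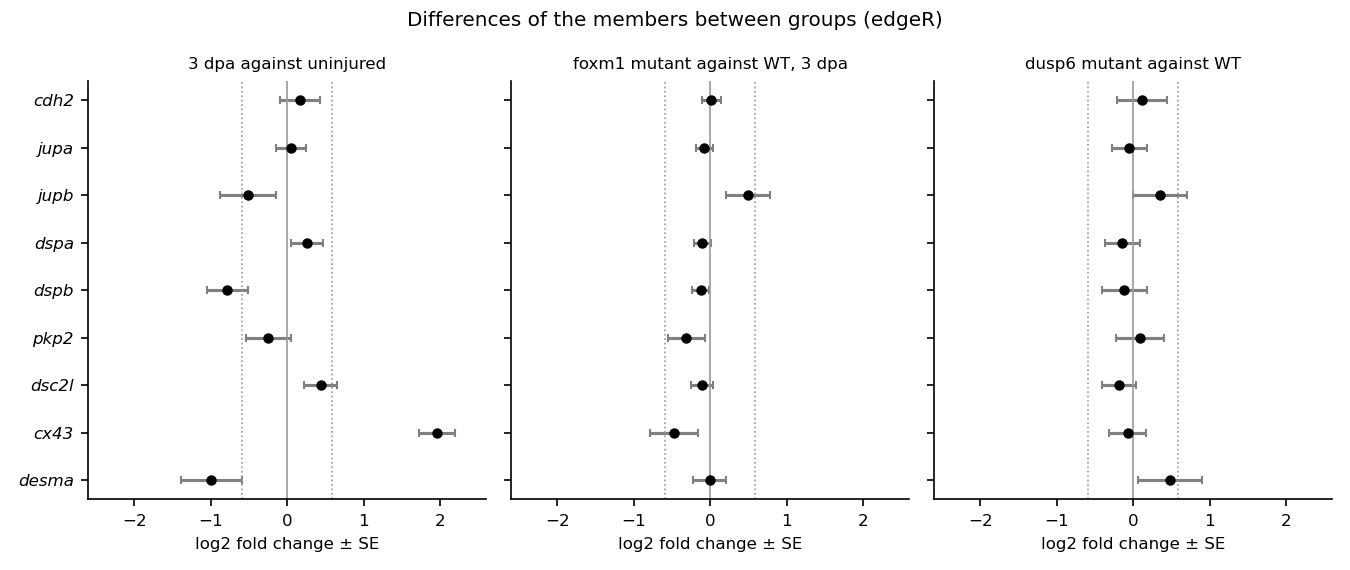
Log2 fold change of each member (horizontal axes, bars show the SE worked out from the F statistic) in the 3 comparisons, from edgeR on TMM-scaled counts, with dotted lines at 0.59 in either direction. At 3 dpa cx43 stands at 1.96 and desma at −0.99, while every member lies within 0.50 of 0 in foxm1 mutants and in dusp6 mutants.

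Other transcripts moved with the state too. The 7 erythrocyte markers had a summed level of 8128 to 11119 TPM in uninjured and 38582 to 73020 TPM in 3 dpa hearts, with 6 of 7 called higher by DESeq2, and the mitochondrial share of reads was 16.0% and 16.9% in WT and dusp6 mutant uninjured hearts and 8.0% and 12.6% at 3 dpa. Without haemoglobin and mitochondrial genes the log2 fold change of cx43 was 1.96 (edgeR adjusted p = 0.0684). The share of cardiomyocyte transcript also differed between the states, so the members were set against it. Over the geometric mean of the 17 cardiomyocyte markers in each library, the log2 level of desma was 0.04 ± 0.17 (SD, n = 2) in uninjured and 0.07 ± 0.12 in 3 dpa hearts, a difference of 0.03 with overlap. The level of dspb differed by 0.34 and that of jupb by 0.14, both with overlap between the groups. The other members lay higher against the markers at 3 dpa without overlap, by 0.78 for pkp2, 1.16 for jupa, 1.28 for cdh2, 1.43 for dspa, 1.54 for dsc2l and 3.08 for cx43. No test was made on these values, and the share of all genes without overlap on this scale was not counted. This scale raises most genes alike. When the counts were scaled to these markers, 94.1% of the 20408 genes tested lay higher at 3 dpa. The median over all of them was 1.14 on the log2 scale. Against that median, cx43, dsc2l, dspa, cdh2 and jupa lay above and jupb, dspb, pkp2 and desma below, which are the same members as on the TMM scale. Scaling moves all genes of a library alike, so these sides could hardly change, and their likeness is no separate evidence.

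**Figure D4:**
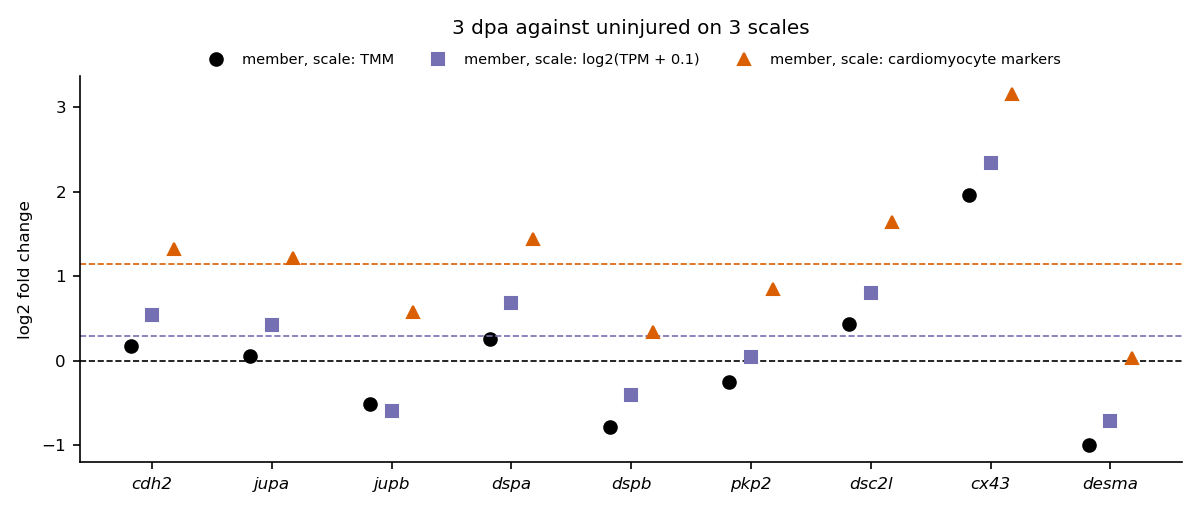
Log2 fold change at 3 dpa against uninjured hearts for each member on the TMM scale (circles), on the log2(TPM + 0.1) scale (squares) and scaled to cardiomyocyte markers (triangles), with a dashed line in the same colour for the median of all genes on that scale. The median moves from −0.0046 to 0.29 and 1.14. On each scale 5 of the 9 members lie above it, which a change of scale could hardly alter, as it moves most genes alike.

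Cells of surface epithelium are rich in desmosomes, and some of their markers moved with the desmosomal genes that lay higher. Of the 13 such markers in the tables, up to 5 were at 0 in a library, and their summed level was 817 to 922 TPM in uninjured and 2287 to 4341 TPM in 3 dpa hearts of the injury experiment. Only 6 passed the filter on low counts, 4 positive and 2 negative with a median of 0.37 on the log2 scale. The keratin genes krt8 (978 and 1206 against 3400 and 2152 CPM in WT and dusp6 mutants) and krt4 (118 and 88.5 against 1065 and 610 CPM) lay higher at 3 dpa. They were the most abundant of these markers in CPM, and krt91 also lay higher (56.5 and 52.7 against 90.6 and 88.9 CPM). The epidermal transcription factor gene tp63 did not lie higher, with 20.9 and 23.1 CPM in uninjured and 9.60 and 19.7 CPM in 3 dpa hearts. Krt5 (0.364 and 0.837 against 0.542 and 0.676 CPM) and cldni (1.55 and 1.92 against 0.572 and 2.15 CPM) overlapped between the states. Epcam overlapped too and was at or below 0.801 CPM in each library of the injury experiment. The part of these cells in the values of dspa, dsc2l and jupa was not tested.

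In hearts at 7 dpa, the authors' group means, over WT and dusp6 mutant hearts together, give a later point for 6 of the members. The deposited table gives the larger mean RPKM (reads per kilobase of exon and 1000000 mapped reads) of the 2 groups compared, which for these genes was that of 7 dpa hearts. Of all 25281 genes, 12189 had a larger mean equal to the uninjured one in the comparison at 7 dpa, and 9688 in that at 3 dpa. A larger mean after resection was thus common at both times. Cx43 had a mean of 1.77 RPKM in uninjured, 8.97 RPKM in 3 dpa and 3.21 RPKM in 7 dpa hearts, so the mean at 7 dpa lay between those of uninjured and 3 dpa hearts. The same order held for cdh2 (84.1, 118 and 96.6 RPKM), jupa (12.7, 16.4 and 14.4), dspa (8.60, 13.5 and 9.87) and dsc2l (9.93, 17.0 and 13.5). The share of all genes in this order was not counted.

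Pkp2 departed from this order, with 2.07 RPKM in uninjured, 2.04 RPKM in 3 dpa and 3.50 RPKM in 7 dpa hearts, a ratio of 1.69 between 7 dpa and uninjured means. For jupb, dspb and desma the uninjured mean was the larger, which puts the 7 dpa mean at or below 0.371, 20.1 and 548 RPKM. No library values of 7 dpa hearts were analysed here, so these means have no error and no test, and RPKM lacks the TMM scaling that brought the 3 dpa differences of cdh2 and jupa close to 0.

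**Figure D5:**
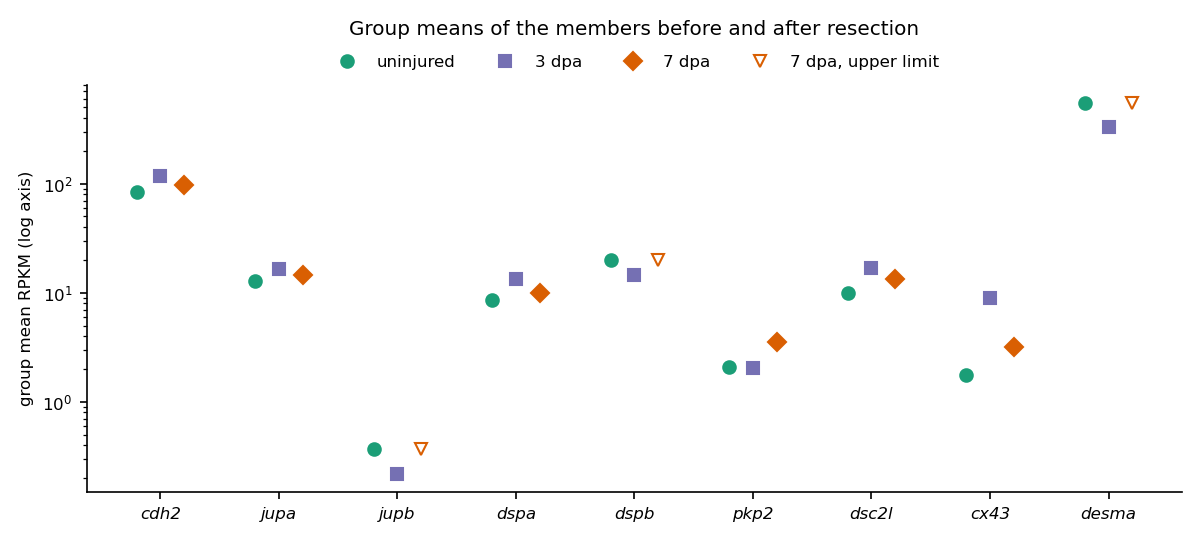
Group mean RPKM of each member (log axis) in uninjured (circles), 3 dpa (squares) and 7 dpa hearts (filled diamonds, the authors' mean), with open triangles where the uninjured mean only sets an upper limit at 7 dpa. Of the 9 members, 5 stand highest at 3 dpa, and pkp2 stands highest at 7 dpa, with 3.50 RPKM. A mean above the uninjured one was common over all genes at both times.

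The second comparison asks whether disc genes differed between foxm1 mutant and WT ventricles at 3 dpa. No member passed the test, and in all 9 the libraries of the 2 genotypes overlapped, where all mutants lay above all WT libraries in 4.85% of the genes tested and below them in 4.38%. The edgeR quasi-likelihood test called 0 of the 9 members at an adjusted p of at most 0.05, against 0.0114% of the 17618 genes tested, and 0 members had an unadjusted p below 0.05. DESeq2 also called 0 members, against 0.664% of all genes. The members' median log2 fold change was −0.10, with 2 positive and 7 negative, and their adjusted p ran from 0.988 to 0.999 (edgeR).

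Cdh2 was at 187, 193 and 236 TPM in WT replicates 2, 3 and 4 and at 209, 199 and 224 TPM in the foxm1 mutants of the same numbers. These values lay within each other's range, with a log2 fold change of 0.02 (SE 0.12, edgeR adjusted p = 0.999). Jupa was as close, at 33.3 to 38.0 TPM in WT and 32.6 to 35.3 TPM in mutant hearts.

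Dspa was at 170, 179 and 179 CPM in WT and at 181, 148 and 162 CPM in mutant hearts, with a log2 fold change of −0.10 (SE 0.11, edgeR adjusted p = 0.999). Dspb was at 30.2, 30.1 and 30.4 TPM in WT and at 30.7, 28.7 and 25.5 TPM in mutant hearts, with a log2 fold change of −0.13 (SE 0.11). The mutants overlapped with WT for both genes, and the WT libraries of dspb were almost level. The log2 ratio of dspa to dspb was 0.26 ± 0.06 (SD, n = 3) in WT and 0.27 ± 0.15 in mutants, a difference of 0.01 (two-sided exact permutation test, p = 0.900, where 0.10 is the smallest possible).

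Dsc2l was at 143, 145 and 123 CPM in WT and at 148, 110 and 123 CPM in mutant hearts. Pkp2 was at 5.28, 5.41 and 3.63 TPM in WT and at 4.96, 3.49 and 4.46 TPM in mutant hearts. For both, mutant and WT values were interleaved, with log2 fold changes of −0.11 (SE 0.14) and −0.31 (SE 0.24). Jupb, with 3 to 13 exon reads in a library, was at 0.113 to 0.272 TPM in WT and 0.190 to 0.491 TPM in mutant hearts. A count of 3 has an exact 95% Poisson interval of 0.619 to 8.77 reads, and a count of 13 one of 6.92 to 22.2 reads, which cover counting error only.

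Cx43 varied most between replicates among the members with over 100 exon reads in every library. It was at 31.0, 33.2 and 16.9 TPM in WT replicates 2, 3 and 4 and at 16.1, 14.5 and 27.5 TPM in the mutants. The 2 WT libraries with high fkbp5 were the highest, and mutant replicate 4 was next. The log2 fold change was −0.47 (SE 0.31, edgeR adjusted p = 0.999), and it stayed negative with 1 library left out at a time, from −0.80 without mutant replicate 4 to −0.30 without mutant replicate 3. Without both WT replicates 2 and 3, an alternative chosen after seeing the data, it turned to 0.23. Desma was at 758, 740 and 997 TPM in WT and at 745, 637 and 1112 TPM in mutant hearts, so replicate 4 was the highest in each genotype. Its log2 fold change was −0.01 (SE 0.21, edgeR adjusted p = 0.999).

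Against the cardiomyocyte markers, the members of foxm1 mutants differed from WT by −0.44 for cx43 and 0.55 for jupb on the log2 scale and by 0.11 or less in size for the other 7. Over these 9 differences no adjusted p was below 0.900 (two-sided exact permutation tests, 3 against 3). The summed level of these markers was 44448 to 47705 TPM in WT and 42157 to 48536 TPM in mutant hearts. The markers of surface epithelium summed to 3951 to 4269 TPM in WT and 3512 to 4127 TPM in mutant hearts, and all 8 that were tested were negative in mutants (median −0.54 on the log2 scale). Some varied widely between libraries, as krt5 with 9.56, 89.8 and 48.2 CPM in WT replicates 2, 3 and 4. All 6 smooth muscle and all 7 skeletal muscle markers tested were negative too. So were 7 of the 9 members, where 49.9% of all genes were positive. Of the 14 macrophage markers 11 were positive, 4 of them at an unadjusted p below 0.05, with a median of 0.35 and sums of 1075 to 1355 TPM in WT and 1162 to 2058 TPM in mutant hearts. The 7 neutrophil markers, 4 positive and 3 negative (median 0.11), summed to 39.2 to 66.6 TPM in WT and 67.7 to 239 TPM in mutant hearts. DESeq2 called 1 neutrophil marker higher and 1 smooth muscle marker lower. Otherwise DESeq2 and edgeR called none of these markers, and their part in the members' values was not tested.

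The third comparison, dusp6 mutant against WT hearts with injury state as a second term, used the 4 libraries of the injury experiment, which it shares with the first. The edgeR quasi-likelihood test called 0 of the 9 members, against 0% of 20408 genes, with 0 members at an unadjusted p below 0.05. DESeq2 called 0 members too, against 1.44% of all genes. Desma had the largest difference, a log2 fold change of 0.48 (SE 0.42, edgeR adjusted p = 0.766). It was found at 3 dpa, where the mutant library stood 0.90 higher on the log2 scale, and in uninjured hearts the mutant stood 0.07 higher, with 1 library of each kind. The cardiomyocyte markers moved with it, with 13 of 17 positive in this comparison and a median of 0.47.

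The other 8 members had log2 fold changes from −0.19 (dsc2l) to 0.36 (jupb) in dusp6 mutants. On the log2(TPM + 0.1) scale, where the median gene stood at −0.14, the signs of cdh2, jupb and pkp2 turned negative. For dspb the mutant library stood lower in uninjured hearts (−0.50 on the log2 scale) and higher at 3 dpa (0.27).

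Other genes of the same structures were taken from lists. None was called by the edgeR quasi-likelihood test at 3 dpa, which called 0% of all genes. DESeq2 called 6.17% of all genes higher and 1.36% lower at 3 dpa, and its calls in each list have to be read beside these shares. Whether a list was called more often than all genes was not tested. Of 18 partners of the adherens junction, 7 were positive and 11 negative (median −0.14 on the log2 scale), and DESeq2 called 1 higher and 1 lower. The highest was cxadr, the coxsackievirus and adenovirus receptor, with a log2 fold change of 3.22 (SE 0.71, edgeR adjusted p = 0.111, DESeq2 1.86e-05). It was at 2.23 and 1.67 TPM in uninjured and at 45.4 and 9.06 TPM in 3 dpa hearts of WT and dusp6 mutants, and the log2 fold change was 1.90 without the WT library at 3 dpa and 3.92 without the dusp6 mutant one. Among the 15 partners with a mean of at least 5 CPM, the next was tjp2b, a tight junction scaffold, at 0.47. The gene DESeq2 called lower was ctnnd2b, which encodes a delta-catenin, with −1.93 (edgeR adjusted p = 0.113, DESeq2 0.00116). It is below the level set for naming and was picked after its values were seen. Among the more abundant partners the lowest were vcla, which encodes the actin linker vinculin, at −1.03 and tln2a, a talin gene, at −1.01 (edgeR adjusted p of 0.123 and 0.195).

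Of 8 other desmosome and armadillo genes, 2 were positive and 6 negative, with a median of −0.47, and DESeq2 called 1 higher. That was the plakophilin gene pkp1b, at 0.460 and 0.347 TPM in uninjured and 14.0 and 2.35 TPM in 3 dpa hearts, with a log2 fold change of 3.13 (SE 0.76, edgeR adjusted p = 0.129), which was 1.69 without the WT library at 3 dpa and 3.85 without the dusp6 mutant one. The more abundant plakophilin gene pkp3b went the other way, from 58.4 and 58.3 to 43.0 and 46.6 TPM, with a log2 fold change of −0.73 (edgeR adjusted p = 0.191). In every library pkp3b was above pkp2 in TPM by at least 9.39-fold. Perp, a desmosomal membrane protein, and pkp4 had log2 fold changes of 0.17 and −0.21.

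Of 11 other connexins and pannexins tested, 3 were positive and 8 negative, with a median of −0.53, and DESeq2 called 1 in each direction. Cx43.4, a connexin related to human connexin 45, was at 1.17 and 1.59 TPM in uninjured and 24.3 and 8.81 TPM in 3 dpa hearts of WT and dusp6 mutants, with a log2 fold change of 3.15 (SE 0.48, edgeR adjusted p = 0.0725, DESeq2 2.57e-08), which was 2.48 without the WT library at 3 dpa. The channel gene panx1a had 0.70. Among the 5 with a mean of at least 5 CPM, the 2 most negative were gja5b, a connexin 40 gene, with −1.01 (SE 0.19, edgeR adjusted p = 0.0889, DESeq2 0.00116), and the connexin 46 gene gja3, with −0.97 (edgeR adjusted p = 0.191). Gja5a, the paralogue of gja5b, was picked after its values were seen and overlapped between the states. It was at 54.2 and 55.8 TPM in uninjured and at 30.4 and 67.3 TPM in 3 dpa hearts of WT and dusp6 mutants. In uninjured hearts gja3 (60.3 and 59.9 TPM) and gja5b (47.9 and 46.0 TPM) were at least 12.7 times the level of cx43 per length, and at 3 dpa they were at 30.7 and 46.7 TPM and at 32.1 and 28.2 TPM. In WT replicates 2 and 3 of the foxm1 experiment, where cx43 was highest, gja3 was at 16.5 and 16.2 TPM, the lowest of the 10 libraries.

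Of 26 linkers of the disc and of intermediate filaments, 5 were positive and 21 negative. Their median was −0.81, where that of the cardiomyocyte markers was −1.06. DESeq2 called 2 linkers higher and 2 lower, beside 6.17% and 1.36% of all genes. Those higher were vim, which encodes the mesenchymal filament protein vimentin, with 1.24 (edgeR adjusted p = 0.0725, DESeq2 8.21e-05), and lmna, which encodes nuclear lamins, with 1.61 (edgeR adjusted p = 0.129, DESeq2 0.00304). Lmna was at 50.6 and 54.6 CPM in uninjured and at 217 and 104 CPM in 3 dpa hearts of WT and dusp6 mutants, and its log2 fold change was 0.98 without the WT library at 3 dpa. Vim was at 18.3 and 21.6 TPM in uninjured and 70.3 and 59.8 TPM in 3 dpa hearts, the opposite direction to desma. Those lower were xirp2a, a Xin repeat gene of the disc, with −1.37 (edgeR adjusted p = 0.109, DESeq2 0.00147), and the filamin C gene flnca, with −1.26 (edgeR adjusted p = 0.164, DESeq2 0.00829).

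Of 13 other classical cadherins, 5 were positive and 8 negative, with a median of −0.16, and neither edgeR nor DESeq2 called any at 3 dpa, with 1 (cdh11) at an unadjusted p below 0.05. Cdh11, a cadherin of mesenchymal cells, had 2.34 (edgeR adjusted p = 0.182), at 0.531 and 0.669 TPM in uninjured hearts and at 7.63 TPM in WT and 1.32 TPM in dusp6 mutant hearts at 3 dpa. Without that WT library its log2 fold change was 0.86. Cdh4 had a log2 fold change of −0.00081. Among the 6 with a mean of at least 5 CPM, the lowest, cdh22 (−0.95) and cdh12a (−0.87), were at or below 0.0540 TPM in the injury experiment, so their reads lay almost entirely outside exons. In foxm1 mutants none of the genes of these 5 lists was called by edgeR or DESeq2, against 0.0114% and 0.664% of all genes. In dusp6 mutants edgeR called none, and DESeq2 called 2, where it called 1.44% of all genes. These 2, also picked after their values were seen, were cdh12a (log2 fold change 1.76) and the muscle cadherin gene cdh15 (−2.03). Their DESeq2 adjusted p was 0.00481 and 0.0282.

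Among the members, dspa and dsc2l varied most alike over the 10 libraries, with a Pearson correlation of 0.91. For all correlations, the mean of the injury experiment and that of the foxm1 experiment as a whole were first removed. Cx43 and dspb varied most oppositely of the pairs without jupb, at −0.77. These correlations mix the injury states and describe the 10 libraries of the injury and foxm1 experiments. Differences among the separately numbered experiments within the foxm1 experiment were not removed and so remain in the correlations. The search for genes of like pattern covered 11951 genes with a mean of at least 5 CPM, less those with a colon in their name, which were skipped. The 3 most like cx43 were loxl2a (0.991), ap3m2 (0.987) and chsy1 (0.978). For desma they were bckdk (0.992), hspb1 (0.983) and paip2b (0.980).

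For dspb the most alike were nbeal1 (0.983), march2 (0.975) and tuba8l2 (0.972), and for dspa mettl27 (0.950), cant1b (0.937) and unc45a (0.923). Dsc2l was closest to gna13a (0.978), sec62 (0.973) and pdgfc (0.971), and pkp2 to cry5 (0.964), kdm5c (0.957) and senp2 (0.950). Jupa was closest to mtmr2 (0.870), perp (0.860) and b4galt4 (0.856), cdh2 to helb (0.933), trappc2 (0.908) and cct7 (0.905), and jupb to CU929391.1 (0.986), gid8a (0.943) and etv2 (0.939).

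By the GRCz11 annotation used, the members lie on 6 chromosomes, and 4 of them on chromosome 20. These are cdh2 (17581881 to 17819238, plus strand, 20 exons over 3 annotated transcripts), dspb (52851793 to 52882881, minus strand, 13 exons, 1 transcript), dsc2l (7262434 to 7293837, minus strand, 16 exons, 1 transcript) and cx43 (40715163 to 40720530, minus strand, 10 exons over 4 annotated transcripts). Jupa is on chromosome 11 (11719575 to 11781911), jupb on chromosome 19 (5480327 to 5590012), dspa on chromosome 2 (2110271 to 2162791), pkp2 on chromosome 4 (16710001 to 16725144) and desma on chromosome 9 (7515864 to 7539326). The 4 genes of chromosome 20 went different ways at 3 dpa, with log2 fold changes of 0.17, −0.78, 0.44 and 1.96. At least 98.0% of the reads of each member other than jupb mapped uniquely in each library, and for jupb the share was 86.0% to 100%.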

How the data were processed

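RNA of adult zebrafish ventricles was sequenced in 10 libraries. The authors mapped reads to GRCz11 in CLC Genomics Workbench. The deposited tables hold read counts per gene (all, unique, exon, intron) and TPM and RPKM values made by the authors from exon reads. The authors' comparison tables hold fold changes and p-values, which were not used, and the larger group mean RPKM, which was used for 7 dpa hearts. In both tables it was at least the uninjured mean for all 25281 genes (relative tolerance 1e-06). Hearts at 20 dpa were not analysed here.

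Counts of all reads were filtered with filterByExpr (10 counts, 15 in total), scaled by TMM and tested in edgeR (version 4.0.16, R 4.3.3) by its quasi-likelihood test, with Benjamini-Hochberg adjustment over all genes tested. Genes were called at an adjusted p of at most 0.01 (3 dpa) or 0.05 (foxm1 and dusp6 mutants) and a log2 difference no smaller than 0.59. The SE of a log2 fold change is its size divided by the square root of the F statistic of this test. Alternatives were RLE size factors, scaling to cardiomyocyte markers, DESeq2 (version 1.42.0), the likelihood ratio test, other filters, unique or exon reads, leaving out haemoglobin and mitochondrial genes, limma-trend (version 3.58.1) on log2(TPM + 1) or log2(TPM + 0.1), all 10 libraries in one fit, blocks, no term for injury state, and each library left out. The tests were tried on simulated data. Ratios within a library used log2(TPM + 0.1) and exact permutation tests (SciPy 1.17.1).

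The genes named are all 9 members, the 2 highest and 2 lowest log2 fold changes at 3 dpa in each of 5 lists of junction genes (mean of at least 5 CPM), and the 3 genes most correlated with each member. Genes with a colon in their name were skipped in the search for correlated genes. Members and lists were chosen with earlier results of these data known. Tables held 18 of 20 listed adherens junction partners, 8 of 16 desmosome genes, 15 of 34 connexins and pannexins, 26 of 29 linkers and 13 of 15 cadherins. Gene reads per library ranged from 17654534 to 67236702.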

Additional observations from a re-analysis of the deposited data

Results flagged for a closer look

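The log2 change of pkp2 at 3 dpa was −0.67 in WT hearts and 0.15 in dusp6 mutant hearts, so the plakophilin 2 gene went opposite ways in the 2 genotypes. Each value compares 1 library with 1 library (9.39 and 5.91 CPM in WT, 7.51 and 8.32 CPM in dusp6 mutants), and the difference between the genotypes was not tested. The other 8 members went the same way in both genotypes.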

How the results depend on the processing

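At 3 dpa the count of members called higher was 1 (cx43) with DESeq2, the likelihood ratio test, all 10 libraries in one fit and scaling to cardiomyocyte markers, and 0 otherwise. The count called lower was 0 under all alternatives, as were both counts in foxm1 and dusp6 mutants. Scaling to cardiomyocyte markers moved the median of all genes at 3 dpa to 1.14 and turned these negative log2 fold changes to 0.038 (desma), 0.34 (dspb), 0.58 (jupb), 0.84 (pkp2), 0.064 (gja3), 0.13 (gja5b), 0.37 (pkp3b), 0.96 (pkp4), 0.024 (tln2a), 0.083 (vcla), 0.026 (cdh12a) and 1.15 (cdh4). It gave −0.24 (cdh2), −8.0e-05 (jupb) and −0.27 (pkp2) in dusp6 mutants and 0.042 (desma) in foxm1 mutants. On log2(TPM + 0.1) and log2(TPM + 1), pkp2 had 0.043 and 0.035, pkp4 0.13 and 0.094 and cdh12a 0 and 0 at 3 dpa. In dusp6 mutants cdh2 had −0.040 on both, pkp2 −0.084 and −0.068, and jupb −0.0077 on the first. Uniquely mapped reads gave −0.28 for perp and 0.11 for cdh4 at 3 dpa and 0.0022 for desma in foxm1 mutants. Cdh4 had 0.0058 with all 10 libraries and 0.010 with at least 1 CPM. Leaving out 1 library gave −0.013 to 0.024 for cdh4 and −2.10 to 0.16 for cdh12a, whose sign turned without the dusp6 mutant uninjured library.

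In foxm1 mutants, leaving out 1 library gave −0.046 to 0.11 for cdh2, −0.27 to 0.16 for desma and −0.056 to 0.088 for the log2 ratio of dspa to dspb. Against cardiomyocyte markers it gave −0.010 to 0.16 for cdh2, −0.084 to 0.051 for jupa and −0.27 to 0.15 for desma. Without WT replicates 2 and 3 together (chosen after seeing the data), cdh2 had −0.16, cx43 0.23, dsc2l 0.037 and pkp2 0.19. The cause of these turns was not tested. With the replicate number as a block, 0 members were called in foxm1 mutants, and cx43 had −0.48 (edgeR adjusted p = 0.973) and desma −0.043. By the labels, a WT and a mutant library of the same number belong to the same numbered experiment. The labels and methods do not say whether such same-numbered libraries share a day, clutch or batch. Their deviations from the genotype mean correlated at 0.086, −0.036 and 0.13 in replicates 2, 3 and 4. The libraries of replicates 2 and 4 correlated best with their own number, and those of replicate 3 did not. With so few libraries this check cannot decide whether a batch was shared. The main test did not take the numbers as pairs, and the fit with the block is given as the alternative. In dusp6 mutants, leaving out 1 library leaves no residual degrees of freedom and so gives values with no test: desma ranged from 0.075 to 0.91, dspb from −0.49 to 0.28, pkp2 from −0.31 to 0.50 and cx43 from −0.33 to 0.22. Of the remaining values, 855 for single genes and 135 for counts, ratios and medians kept their direction and their side of the threshold, and 30 for cx43 and 9 other genes at 3 dpa kept their direction and passed it. A further 14 values for single genes moved and are in none of these counts. Depth limits jupb most, with 3 to 13 exon reads a library in the foxm1 experiment.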
